A study of Homo sapiens with 12 samples.

Results

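The Notch signalling genes described here are 10 of the 58302 genes in the expression table of a series on partial loss of Dicer1 in a thyroid cancer line. They were taken by their gene names and comprise 3 receptors (NOTCH1, NOTCH2, NOTCH3), 3 ligands (JAG1, JAG2, DLL1) and 4 target genes (HES1, HES4, HEY1, NRARP). The rule names genes and uses no measured value, but the genes were listed with earlier results of these data known. RNA was sequenced from 12 libraries, 3 from each of 4 lines. TPC1, derived from a papillary thyroid carcinoma, was the wild-type control line. D11, WB1 and TD5 are monoclonal lines made from TPC1 with CRISPR-Cas9, and each is labelled Dicer1 (+/-), with 1 wild-type allele kept. Each of these lines was 1 clone, so within a line an effect of the genotype and a property of the clone cannot be told apart. All 4 lines were grown in the same serum-containing RPMI medium without a treatment, and no label says that the 3 libraries of a line were separate cultures, so the p-values measure only the spread between these libraries.

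Notch receptors sit in the cell membrane and are activated by ligands on neighbouring cells. Ligand binding lets an ADAM protease and then the gamma-secretase complex cut the receptor, and the freed intracellular part enters the nucleus, where it joins RBPJ and a Mastermind-like protein on DNA and switches on genes of the HES and HEY families. These encode transcriptional repressors, and NRARP encodes a short protein that acts back on the nuclear complex. The pathway is known for fate decisions between neighbouring cells and for roles in many tumours, either promoting or restraining growth. DICER1 encodes the ribonuclease that cuts microRNA precursors.

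RBPJ is known to bind DNA with the letters TGGGAA, and the promoter windows of HES1 and HES4 that hold them are shown because these genes are known targets. RefSeq promoters, 250 bases before to 50 bases after each start on GRCh38.p14, matched 8 of the 10 genes, with no entry for DLL1 and HEY1. The letters GTGGGAA were searched on both strands, together with the shorter TGGGAA, which every match of GTGGGAA contains. GTGGGAA was in 2 of the 8 promoters, HES1 and HES4, and in 6.25% of the 35116 promoters of the table. TGGGAA was in the same 2 genes and in 24.0% of all promoters, with 2 matches in HES1 that began 84 and 70 bases before the start and 1 match in HES4 that began 76 bases before it. Both windows run 5′ to 3′ on the gene's strand from 90 to 61 bases before the RefSeq start, with TGGGAA in capitals, for HES1 at chr3:194136058-194136087 on the plus strand and for HES4 at chr1:1000158-1000187 on the minus strand.
HES1: ttactgTGGGAAagaaagttTGGGAAgttt
HES4: ggctggggcgagtgTGGGAAagaatgcgga
In the GENCODE annotation HES4 reaches to position 1000172, so part of its window lies inside that gene model. These matches describe letters only, and binding was not measured.

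Values are scaled reads: the authors brought each library to 20000000 aligned reads, and the deposited numbers are whole. Library sums were 20009833 to 20014191, and the steps between values put the reads behind them at 12700000 to 21025000. A floor of 3 reads was 2.85 to 4.72 scaled reads and covers counting error only. Pairs of libraries correlated at 0.983 to 0.997 over genes, which are not independent replicates. Some libraries were low in many of the Notch genes. TPC1 replicate 2 was the lowest of its line in 7 of the 10 genes, with a tie in HES4, and WB1 replicate 1 in 8 of 10. The same counts were not made over all genes, so these do not single out the Notch genes. Among the thyroid markers, PAX8 had 7248 to 9879 scaled reads and FOXE1 averaged 294 in TPC1 and 143, 132 and 117 in D11, WB1 and TD5, TG had 11 to 27, and NKX2-1, TSHR and SLC5A5 were at 0 in all 12 libraries, so these thyroid markers were absent and TG, the thyroglobulin gene, was low. The 4 epithelial markers summed to 21031 to 24052 in the TPC1 libraries and to 16609 to 19018 in the clones, with no overlap. Nearly all of this was KRT8 and KRT18, while KRT19 had only 0 to 6 and EPCAM 0 to 5 scaled reads. The part of these marker differences in the Notch results was not tested. DICER1 itself averaged 1197 ± 142 scaled reads in TPC1 (SD, n = 3), and the clones were at 86.9% (D11), 73.4% (WB1) and 57.9% (TD5) of that, with log2 fold changes of −0.19, −0.43 and −0.77 (limma adjusted p = 0.138, 0.00404 and 9.02e-05). Only TD5 passed both thresholds used here, namely 0.05 for the adjusted p and 1.5-fold for the size of the change. After GC correction DICER1 was at −0.37 in D11 (limma adjusted p = 0.00125) and −0.58 in WB1, both still under 1.5-fold.

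In TPC1, NOTCH2 was by far the most abundant of the 10 genes. Per kilobase of exon in the GENCODE annotation it had 414 ± 31.2 scaled reads (SD, n = 3), HES1 had 99.4 ± 8.16 and NOTCH1 36.9 ± 10.4. JAG1 (28.6 ± 3.67), NOTCH3 (27.3 ± 4.59), JAG2 (22.8 ± 3.00) and HES4 (17.6 ± 4.13) followed in that order of scaled reads per kilobase. DLL1 (10.6 ± 3.29), HEY1 (7.47 ± 2.28) and NRARP (4.67 ± 2.09) were lowest by this measure. From NOTCH1 to HES4 each gene's 3 TPC1 libraries overlapped those of the next gene in the order, as did those of DLL1 with HEY1 and of HEY1 with NRARP. NOTCH2 and HES1, HES1 and NOTCH1, and HES4 and DLL1 did not overlap. The exon lengths join the exons of all transcripts of a gene in GENCODE release 44, while the authors counted on Ensembl release 90. For HEY1 this length, 5487 bases, is the whole span of the gene, introns included. Its value per kilobase can therefore be understated, and its place in the order is uncertain.

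NOTCH3 was the only tested Notch gene that passed both thresholds in a clone against TPC1. It fell in D11 and in WB1 and not in TD5, and the differences of TD5 from both other clones passed the test as well. NOTCH3 (ENSG00000074181, chromosome 19, 15159038 to 15200995, minus strand, GRCh38) encodes a receptor known for its role in vascular smooth muscle. TPC1 had 285, 207 and 278 scaled reads, D11 had 113, 122 and 114, WB1 had 123, 189 and 176, and TD5 had 265, 259 and 271. All libraries of D11 and WB1 lay below every TPC1 library, with TPC1 replicate 2 nearest to them, while TD5 lay inside the TPC1 range. The mean was 257 ± 43.2 in TPC1, and D11 averaged 116 ± 4.93, WB1 163 ± 35.0 and TD5 265 ± 6.0 (SD, n = 3 each), which puts D11 at 45.3%, WB1 at 63.4% and TD5 at 103% of TPC1.

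The NOTCH3 log2 fold change against TPC1 was −1.01 in D11 (SE 0.14, limma adjusted p = 7.4e-05). In WB1 it was −0.61 (SE 0.14, adjusted p = 0.00373), close to the 1.5-fold limit. In TD5 it was 0.06 (95% interval −0.23 to 0.34, adjusted p = 0.844). TD5 exceeded D11 by 1.06 (adjusted p = 5.1e-05) and WB1 by 0.66 (adjusted p = 0.00515), while WB1 exceeded D11 by 0.40, which did not pass (adjusted p = 0.0854). The D11 call held under every alternative run. The WB1 call was lost without WB1 replicate 1 (−0.44), without TPC1 replicate 1 (−0.53) or replicate 3 (−0.55), with a pseudocount of 4 (−0.47) and after correction of each library for gene GC content (−0.43, adjusted p = 0.021), each time because the change came under 1.5-fold.

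NOTCH3 is a GC-rich gene (63.1% in its exons), and libraries differed in this respect: the median centred log2 value of the 2099 tested genes with at least 60% GC ran from −0.12 in D11 replicate 3 to 0.14 in TPC1 replicate 3. After the GC correction the NOTCH3 log2 fold change in D11 was −0.83, still called. The fibroblast and mural cell marker PDGFRB was also lower in D11 and WB1, with mean scaled reads of 160 in TPC1, 109 in D11, 47.0 in WB1 and 150 in TD5. The fibroblast marker COL1A1 went another way, with means of 84.3, 77.7, 78.7 and 53.3 in that order of lines, lowest in TD5. The summed scaled reads of the 5 fibroblast markers, of which 2 were detected, were 186 to 289, 168 to 206, 98 to 147 and 187 to 221 in the same order of lines. DCN was at 0 in all 12 libraries and COL1A2 at 0 to 2, and the part of these markers in the NOTCH3 result was not tested. In bulk RNA of a cultured line, fewer cells that express a gene and less RNA per cell cannot be told apart. The 8 tested genes within 250000 bases of NOTCH3 had log2 fold changes of −0.33 to 0.06 in D11 and −0.44 to 0.04 in WB1, all under 1.5-fold. Their medians were −0.23 in D11 and −0.19 in WB1, beside 0.05 and 0.06 over all tested genes.

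The 3 genes whose centred log2 values over the 12 libraries lay nearest to those of NOTCH3 were SDC2, DAPK1 and RAP1GAP, with mean absolute differences of 0.11, 0.12 and 0.13, against a mean absolute value of 0.42 for NOTCH3 itself. SDC2 encodes a cell surface proteoglycan, DAPK1 a kinase linked to cell death and RAP1GAP a protein that switches off the small GTPase RAP1. Their line means in TPC1, D11, WB1 and TD5 were 1375, 612, 846 and 1255 scaled reads for SDC2. For DAPK1 they were 1237, 652, 917 and 1418, and for RAP1GAP 96.7, 52.7, 56.7 and 110. These genes were picked for that likeness, which is a description.

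NOTCH1 and NOTCH2 were not called in any clone. NOTCH1 (ENSG00000148400, chromosome 9, 136494433 to 136546048, minus strand) had 492, 319 and 575 scaled reads in TPC1, with 500, 539 and 477 in D11, while WB1 had 354, 366 and 392 and TD5 391, 482 and 544. TPC1 alone spanned the whole range, with its replicate 2 the lowest and its replicate 3 the highest of the 12 libraries, so every clone overlapped it, while the D11 libraries all lay above those of WB1. The log2 fold changes were 0.16 in D11, −0.27 in WB1 and 0.06 in TD5 (SE 0.15 each, limma adjusted p = 0.431, 0.196 and 0.859). WB1 differed from D11 by −0.43 (limma adjusted p = 0.114). The WB1 value rested on single TPC1 libraries, with −0.50 without replicate 2 (adjusted p = 0.00752, under 1.5-fold) and −0.09 without replicate 3, and it was −0.09 after GC correction. An uncharacterised gene lies on the opposite strand, as at NOTCH2, JAG1 and NRARP, and whether counting used the strand is not given in the sources used here.

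NOTCH2 (ENSG00000134250, chromosome 1, 119911553 to 120100779, minus strand) had 7268, 7194 and 6328 scaled reads in TPC1, with 6948, 6852 and 7083 in D11, while WB1 had 7749, 8427 and 8031 and TD5 7406, 6761 and 7552. The WB1 libraries were the 3 highest of the 12. The log2 fold change was 0.22 in WB1 (SE 0.06, limma adjusted p = 0.0134), which passed on p and was under 1.5-fold, and 0.01 in D11 and 0.06 in TD5 (adjusted p = 0.926 and 0.553). WB1 also differed from D11 by 0.21 (adjusted p = 0.0426), under 1.5-fold. NOTCH2 has near-identical partial copies, of which the table lists NOTCH2NL with 33 to 75 scaled reads per library, and how reads that match both were counted is not given in the sources used here.

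**Figure D1:**
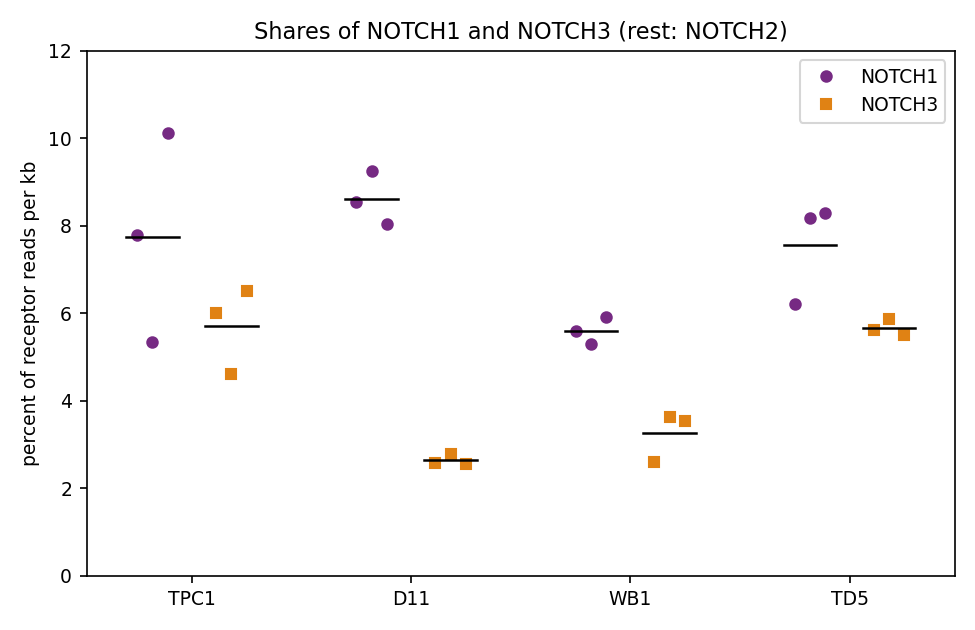
Share of NOTCH1 and NOTCH3 in the summed reads per kilobase of the 3 receptors (percent, axis from 0), for each library. Points are libraries and bars line means (n = 3), and NOTCH2 makes up the rest. NOTCH3 takes 2.56% to 3.64% in D11 and WB1 and 4.61% to 6.52% in TPC1 and TD5, without correction for GC content.

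Among the 3 receptors, NOTCH2 thus made up most of the RNA in every library, from 83.4% to 91.8% of their reads per kilobase. NOTCH1 held 5.29% to 10.1%. NOTCH3 held 5.71% ± 0.988 in TPC1 and 5.66% ± 0.182 in TD5, and only 2.64% ± 0.128 in D11 and 3.25% ± 0.574 in WB1 (SD, n = 3). The D11 and WB1 libraries all lay below those of TPC1 and TD5. The shares restate the NOTCH3 reads given above. They were not corrected for GC content, in which NOTCH3 (63.1%) and NOTCH2 (49.4%) differ. The summed scaled reads of the receptors were 7649 ± 436 in TPC1, 7583 ± 82.7 in D11, 8602 ± 378 in WB1 and 7977 ± 439 in TD5. NOTCH2 makes up most of this sum, so the sum cannot show the change in NOTCH3.

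The 3 ligands were not called in any clone against TPC1 or between clones. JAG1 (ENSG00000101384, chromosome 20, 10637684 to 10673999, minus strand), a ligand that also lies among the targets of the pathway, had 294, 228 and 276 scaled reads in TPC1, with 315, 267 and 310 in D11, while WB1 had 256, 302 and 284 and TD5 249, 194 and 209. TD5 held the 2 lowest libraries, and its replicate 1 lay within the TPC1 range. JAG1 was at 81.7% of TPC1 in TD5, a log2 fold change of −0.27 (SE 0.11, 95% interval −0.51 to −0.03, limma adjusted p = 0.139). Between TD5 and D11 the difference was −0.42 (adjusted p = 0.0141), which passed on p and was under 1.5-fold.

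JAG2 (ENSG00000184916, chromosome 14, 105140982 to 105168824, minus strand), the second Jagged ligand, had 149, 125 and 163 scaled reads in TPC1, with 145, 146 and 109 in D11, while WB1 had 86, 99 and 141 and TD5 122, 154 and 178. WB1 held the 2 lowest libraries but its replicate 3 lay within the TPC1 range. The log2 fold change in WB1 was −0.38 (95% interval −0.72 to −0.04, limma adjusted p = 0.0815), and those in D11 and TD5 were −0.11 and 0.04. A further gene model overlaps JAG2 on the same strand.

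DLL1 (ENSG00000198719, chromosome 6, 170282206 to 170306565, minus strand), a ligand of the Delta family, was low, with 29, 39 and 54 scaled reads in TPC1, with 35, 40 and 41 in D11, while WB1 had 35, 31 and 35 and TD5 32, 26 and 29. The TPC1 libraries spanned the values of nearly all the clone libraries. Log2 fold changes were −0.03 in D11, −0.16 in WB1 and −0.29 in TD5 (SE 0.14 each, limma adjusted p = 0.891, 0.410 and 0.197). DLL1 overlaps FAM120B on the opposite strand. Summed over the 3 ligands, TPC1 had 452 ± 53.3 scaled reads, D11 469 ± 22.5, WB1 423 ± 42.2 and TD5 398 ± 21.5 (SD, n = 3), and the library ranges of the clones overlapped that of TPC1.

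None of the target genes passed both thresholds in any comparison. HES1 (ENSG00000114315, chromosome 3, 194136148 to 194138732, plus strand), the best known direct target, had 190, 201 and 223 scaled reads in TPC1, with 231, 227 and 235 in D11, while WB1 had 246, 264 and 296 and TD5 298, 218 and 333. All libraries of D11 and WB1 lay above every TPC1 library, and TD5 did so in 2 of 3, since its replicate 2 lay within the TPC1 range. D11 was at 113%, WB1 at 131% and TD5 at 138% of the TPC1 mean of 205 ± 16.8. The log2 fold changes were 0.16 in D11 (95% interval −0.10 to 0.42, limma adjusted p = 0.321), 0.36 in WB1 (0.10 to 0.62, adjusted p = 0.0362) and 0.41 in TD5 (0.15 to 0.68, adjusted p = 0.0376). The last pair passed on p and not on the 1.5-fold limit, and over the alternatives the adjusted p ran from 0.00979 to 0.118 in WB1 and from 0.00187 to 0.163 in TD5. The clones did not pass on p against each other for HES1 (TD5 against D11 0.25, adjusted p = 0.148).

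HEY1 (ENSG00000164683, chromosome 8, 79762371 to 79767857, minus strand), a target of the Hairy-related family, had 45, 27 and 51 scaled reads in TPC1, with 54, 42 and 39 in D11, while WB1 had 73, 44 and 81 and TD5 29, 37 and 58. WB1 held the 2 highest libraries, while its replicate 2 lay within the range of every other line. The log2 fold change in WB1 was 0.49 (SE 0.20, 95% interval 0.07 to 0.91, limma adjusted p = 0.0706), and without WB1 replicate 2 it was 0.69 and passed both thresholds (adjusted p = 0.0247). D11 and TD5 gave 0.11 and 0.00.

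HES4 (ENSG00000188290, chromosome 1, 998962 to 1000172, minus strand), another repressor of the HES family, had 17, 17 and 25 scaled reads in TPC1, with 20, 24 and 19 in D11, while WB1 had 9, 13 and 18 and TD5 21, 27 and 42. The 3 TD5 libraries lay above the 3 of WB1 with no overlap, and both lines overlapped TPC1. HES4 reached 1 per 1000000 in 5 libraries, the 3 of TD5, TPC1 replicate 3 and D11 replicate 2, so it passed the filter on low values through the line where it was high, and its differences are given as a description with no test. TD5 differed from WB1 by 0.57 on the log2 scale, and against TPC1 the log2 fold changes were 0.05 in D11, −0.25 in WB1 and 0.32 in TD5. At 73.9% GC it was the most GC-rich of the 10 genes.

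NRARP (ENSG00000198435, chromosome 9, 137299631 to 137302271, minus strand) was too low to be tested. It had 12, 7 and 18 scaled reads in TPC1, with 7, 12 and 13 in D11, while WB1 had 10, 14 and 12 and TD5 7, 13 and 13, all above the floor of 3 reads. The lines overlapped, with means of 12.3 ± 5.51, 10.7 ± 3.21, 12 ± 2.0 and 11.0 ± 3.46 (SD, n = 3), and a difference was not detectable at this depth.

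By the same measure of likeness as for NOTCH3, the genes nearest to HES4 were NOP53, SSBP4 and PHRF1, with mean absolute differences of 0.09, 0.09 and 0.10 against a mean absolute value of 0.19 for HES4. Those nearest to HEY1 were IGDCC4, MAP1A and BMP6, with 0.10, 0.15 and 0.15 against 0.26. BMP6 encodes a ligand of the bone morphogenetic protein family, and its line means were 33.7 scaled reads in TPC1, 39.0 in D11, 65.7 in WB1 and 36 in TD5.

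**Figure D2:**
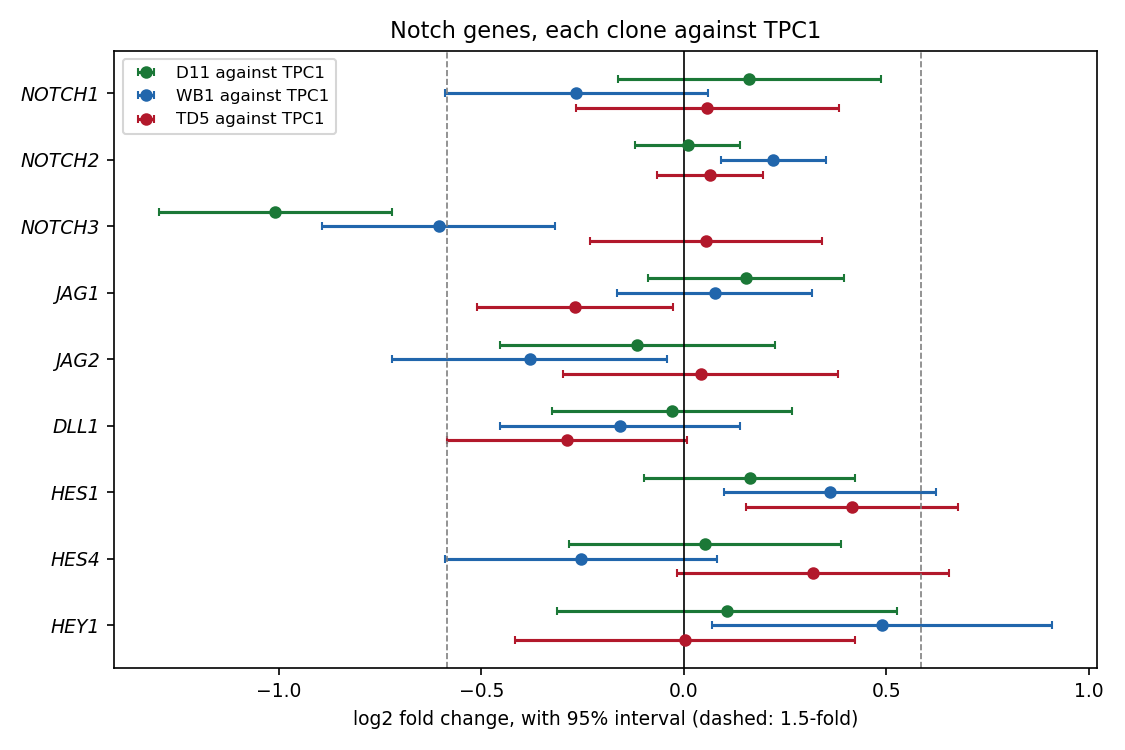
Log2 fold changes of the 9 tested Notch genes in each clone against TPC1, on the log2(value per 1000000 + 1) scale, with 95% intervals from limma. Dashed lines mark 1.5-fold. HES4 passed the filter on low values only through TD5, so its points and intervals are a description with no test. NOTCH3 lies beyond the dashed line in D11 (−1.01) and WB1 (−0.61), and the points of the other 8 genes lie within the lines.

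Of the 10 genes, 9 passed the filter on low values and were tested, HES4 among them only through TD5. In D11, 1 of 9 was called lower, where 1.95% of the 16027 tested genes were, and 0 were called higher, against 2.89% of all. In WB1, 1 was called lower (1.59% of all tested genes) and 0 higher (3.39%). In TD5, 0 were called higher (1.12%) or lower (1.48%) by limma, 2 had an unadjusted p under 0.05 and limma-voom also called 0. The single call in D11 and in WB1 was NOTCH3 both times, and these comparisons share the TPC1 libraries. Between clones, 1 of 9 was called in TD5 against D11 (3.99% of all) and 1 in TD5 against WB1 (2.33%), both NOTCH3. In WB1 against D11, 0 were called by limma (2.85% of all), 3 had an unadjusted p under 0.05 and limma-voom called 0. The median log2 fold change of the 9 genes was 0.05 in D11, −0.16 in WB1 and 0.06 in TD5, beside 0.05, 0.06 and 0.00 over all tested genes. In 0 of the 9 did all 9 clone libraries lie on one side of every TPC1 library, which 5.17% of all tested genes did above and 6.51% below.

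The rest of the pathway was read from a list of 49 other genes by role, of which 39 were tested. In D11, 1 was called higher and 1 lower, in WB1 1 higher and 0 lower, and in TD5 0 higher and 1 lower. These are 2, 1 and 1 of 39, beside the shares of all tested genes given above. The median log2 fold change of the list was 0.01 in D11, 0.05 in WB1 and −0.0015 in TD5. The proteases that cut Notch, ADAM10, ADAM17 and the gamma-secretase subunits, gave 0 calls among 8 tested genes, with log2 fold changes of −0.28 to 0.29 over the 3 clones. The 6 genes of the nuclear complex gave 1 call, the 7 corepressors 0, and the 4 tested glycosyltransferases 0, with the last between −0.53 and 0.47. Of the 10 untested genes, the receptor NOTCH4 had 0 to 14 scaled reads, the ligand DLL4 0 to 2 and the target HES5 0 to 1, while DLK1 and HEYL were at 0 in all 12 libraries, which allows up to 3 reads, or 2.85 to 4.72 scaled reads, in a library.

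The largest of these changes was in DTX3. DTX3 (ENSG00000178498, chromosome 12, 57604622 to 57609804, plus strand) encodes a protein of the Deltex family of ubiquitin ligases, named after a Notch regulator of the fly. It had 192, 192 and 175 scaled reads in TPC1, with 158, 171 and 191 in D11, while WB1 had 197, 205 and 183 and TD5 29, 30 and 36. The TD5 libraries stood far below all 9 others, which overlapped. TD5 was at 17.0% of TPC1, a log2 fold change of −1.999 (SE 0.11, limma adjusted p = 2.27e-09), and differed from D11 by −1.90 and from WB1 by −2.06 (adjusted p = 1.39e-09 and 1.23e-09). Of the 25 tested genes within 250000 bases of DTX3, 2 were also called lower in TD5, ARHGEF25 (−0.77) and AC025165.1 (−0.69), and 0 higher. Of all tested genes 1.48% were called lower and 1.12% higher in TD5. The median log2 fold change of the 25 genes was −0.13, beside 0.00 over all tested genes.

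DTX4, of the same family, had 449, 376 and 412 scaled reads in TPC1, with 230, 241 and 237 in D11, while WB1 had 349, 309 and 344 and TD5 394, 338 and 326. It fell in D11 to 57.2% of TPC1, a log2 fold change of −0.75 (SE 0.09, limma adjusted p = 3.6e-05). The D11 libraries lay below all others. WB1 and TD5 gave −0.29 and −0.22 and were not called.

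MAML3, a Mastermind-like coactivator of the nuclear complex, had 56, 91 and 46 scaled reads in TPC1, with 99, 84 and 99 in D11, while WB1 had 133, 133 and 148 and TD5 76, 74 and 84. The WB1 libraries lay above all others, and MAML3 rose there by 0.94 on the log2 scale (SE 0.15, limma adjusted p = 0.000328). The log2 fold changes of 0.47 in D11 and 0.25 in TD5 were not called, but D11 was called with limma-voom (0.59) and without TPC1 replicate 2 (0.68). TD5 differed from WB1 by −0.69 (adjusted p = 0.00768). HES2, a further HES family gene, had 25, 19 and 44 scaled reads in TPC1, with 51, 56 and 55 in D11, while WB1 had 44, 38 and 56 and TD5 35, 16 and 38. It rose in D11 by 0.62 (SE 0.19, limma adjusted p = 0.0209), and TD5 differed from D11 by −0.61 (adjusted p = 0.0294). Both HES2 calls were lost with median-of-ratios scaling, without a filter on low values, with a pseudocount of 4, with a 2-fold limit, and without D11 replicate 2 or 3. A stricter filter on low values left HES2 untested. The call against TPC1 was also lost without TPC1 replicate 1 or 2, and that against TD5 without D11 replicate 1 or TD5 replicate 2.

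A few pathway genes had all 9 clone libraries on one side of TPC1 with small changes, and these were named after their values were seen. NCSTN and PSEN2 of the gamma-secretase complex, the fucosyltransferase POFUT1 and the corepressor TLE4 lay below, and NEURL1B, a ligase for Notch ligands, lay above. TLE4 had 696 to 825 scaled reads in TPC1 and was at 77.1%, 81.2% and 68.3% of TPC1 in D11, WB1 and TD5 (limma adjusted p = 0.00250, 0.00934 and 0.000239). NEURL1B was at 111%, 152% and 143% of TPC1 (limma adjusted p = 0.231, 0.000175 and 0.00130). Each lay under 1.5-fold on the log2 scale used. Of 39 tested pathway genes these are 1 above and 4 below, where 5.17% and 6.51% of all tested genes lay on those sides.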

How the data were processed

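RNA was measured in 12 libraries of TPC1 and the Dicer1 (+/-) clones D11, WB1 and TD5, grouped by their labels. The authors prepared stranded mRNA libraries, mapped paired-end reads to GRCh38 with STAR 2.5.3a, counted genes of Ensembl release 90 with HTSeq 0.9.1 and scaled to 20000000 aligned reads, so the deposited values are scaled whole numbers and were treated as a score, not as raw counts. The edgeR quasi-likelihood method that the authors used needs counts. Instead limma 3.58.1 (R 4.3.3) was run on log2(value per 1000000 + 1), with a variance trend and 1 mean per line. Tested were the 16027 of 58302 genes that reached 1 per 1000000 in 3 or more libraries, and a call took a p of under 0.05 after Benjamini-Hochberg adjustment over them, and 1.5-fold. Fold changes understate low genes on this scale. The calling was tested on simulated data.

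The Notch genes and the pathway list were chosen with earlier results of these data known. The rule for named genes took the 10 Notch genes, DICER1, pathway genes called in at least 1 clone, and the 3 genes most like each of the 3 tested Notch genes with the largest range of line means. NOTCH2NL is named as a limit. Markers, neighbouring genes, untested pathway genes, genes that joined under alternatives and pathway genes on one side of TPC1 fall outside that rule and were named after their values were seen, except the markers. Positions, exon lengths and GC content come from GENCODE release 44, and promoters from RefSeq. Depth was estimated from the steps between values, since scaling leaves gaps in whole numbers. The marker lists for endothelial cells and leukocytes summed to 16 to 34 and 2 to 9 scaled reads per library. Alternatives covered the filter, thresholds, pseudocount, scaling, libraries fitted, replicate block, GC and length corrections, limma-voom on estimated reads, and leaving out each library. For the pathway genes, for DICER1 and for NOTCH3 between clones they were chosen after seeing the data. Replicate numbers were checked by correlating deviations from line means. Between D11 and TD5 the 3 correlations of equal numbers (0.11 to 0.35) all exceeded 0.1, which no other pair of lines did. Negative values of like size were found between WB1 and TD5 (−0.27 to −0.07) and between TPC1 and D11 (−0.19 to −0.13). These correlations therefore cannot decide whether equal numbers are paired, and no label states it. The main fit used the line only, and the replicate block was run as an alternative.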

Additional observations from a re-analysis of the deposited data

Results flagged for a closer look

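Differences between the effects in the clones were tested as contrasts of the clones themselves, with limma over all 12 libraries, and 6 passed both thresholds. In TD5 against D11, 1 of 9 tested Notch genes and 2 of 39 pathway genes passed, beside 3.99% of all tested genes. In WB1 against D11 these were 0 and 0 (2.85% of all), and in TD5 against WB1 1 and 2 (2.33% of all). An excess over these shares was not tested. NOTCH3 was higher in TD5 than in D11 by 1.06 and than in WB1 by 0.66 on the log2 scale. DTX3 was lower in TD5 than in D11 by −1.90 and than in WB1 by −2.06. HES2 in TD5 against D11 gave −0.61, and MAML3 in TD5 against WB1 gave −0.69. In NOTCH3 the 3 TD5 libraries (259 to 271 scaled reads) lay above all libraries of D11 and WB1 (113 to 189), and in DTX3 the 3 TD5 libraries (29 to 36) lay below all of theirs (158 to 205). With 3 libraries per line, single libraries standing apart were not tested. The NOTCH3 and DTX3 differences of TD5 from D11 and the DTX3 difference from WB1 were called under every alternative run. The NOTCH3 difference from WB1 (0.66) was not called without WB1 replicate 1 (0.49), with a pseudocount of 4 (0.52), after GC correction (0.50) or with a 2-fold limit. The MAML3 difference was not called with a pseudocount of 4 or with a 2-fold limit. The HES2 difference was not called under 9 alternatives, among them median-of-ratios scaling and leaving out any 1 of the D11 libraries. They include the stricter filter, under which HES2 was not tested.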

How the results depend on the processing

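Of the called Notch genes, NOTCH3 in D11 against TPC1 and in TD5 against D11 was called under every alternative run, and the NOTCH3 calls that involve WB1 were not. The number called in WB1 (1) was 0 with a pseudocount of 4, a 2-fold limit, GC correction or GC correction with the replicate block, and 3 with no fold limit. For TD5 against WB1 (1) it was 0 under those same 4 settings, and 2 with a pseudocount of 0.25, with median-of-ratios scaling, with limma-voom or with no fold limit. With no fold limit the number was 1 in TD5 and in WB1 against D11 and 2 in TD5 against D11. For the pathway genes, D11 (2) gave 1 without a filter, with the stricter filter, with a pseudocount of 4 or with median-of-ratios scaling, 0 with a 2-fold limit, 13 with none and 3 with limma-voom, where MAML3 (0.59) joined. With the stricter filter HES2 was not tested. WB1 (1) gave 3 with a pseudocount of 0.25 or with limma-voom, 2 with GC correction, with or without the block, 0 with a 2-fold limit and 13 with no limit, and TD5 (1) gave 7 with no limit. In WB1, NEURL1B joined MAML3 under these settings, with 0.71 after GC correction, and MAML2 joined with a pseudocount of 0.25 (0.59) and with limma-voom (0.59). DICER1 in WB1 (−0.43) was called with no fold limit, and in TD5 (−0.77) it was not called with a 2-fold limit.

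Leaving out 1 library gave 1 to 1 Notch genes called in D11, 0 to 2 in WB1, 0 to 0 in TD5, 1 to 1 in TD5 against D11, 0 to 0 in WB1 against D11 and 0 to 3 in TD5 against WB1. The last range was 0 without WB1 replicate 1 and 3 without WB1 replicate 3, where HES4 (0.67) and JAG2 (0.60) joined NOTCH3. The number for TD5 against WB1 was 2 without TD5 replicate 1, where HES4 (0.70) joined, and 2 without TD5 replicate 3, where HEY1 (−0.68) did. HES4 also made up the second call under the pseudocount of 0.25, median-of-ratios scaling, limma-voom and no fold limit. HES4 passed the filter only through TD5, the line where it was high, so its entries in these counts are a description with no test. Pathway calls were 1 to 2 in each of D11, WB1 and TD5. LFNG joined without TPC1 replicate 2, with −0.69 in WB1 and −0.71 in TD5, and without TD5 replicate 2, with −0.68 in TD5. In WB1 MAML2 joined when replicate 1 of TPC1 (0.60) or of WB1 (0.59) was left out. HES2 joined there without TPC1 replicate 3 (0.65), and MAML3 in D11 without TPC1 replicate 2 (0.68), while HES2 in D11 was lost without TPC1 replicate 1 or 2 or D11 replicate 2 or 3. DICER1 ran from −0.25 to −0.10 in D11, −0.49 to −0.34 in WB1 and −0.89 to −0.68 in TD5, and over all alternatives it reached −0.37 in D11 and −0.58 in WB1, both after GC correction.

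Directions turned only for changes that were not called. Scaling by median of ratios gave −0.050 for NOTCH2 in D11 and −0.00313 for HEY1 in TD5, and length correction gave −0.071 and −0.00211 for them. GC correction, with or without the replicate block, gave −0.015 for HEY1 in TD5, 0.062 for JAG2 in D11 and 0.14 for DLL1 in D11, and limma-voom gave 0.014 for DLL1 in D11. Over single libraries left out, the ranges that crossed 0 were −0.073 to 0.33 for NOTCH1, −0.055 to 0.045 for NOTCH2, −0.071 to 0.23 for HEY1, −0.21 to 0.0051 for JAG2 and −0.17 to 0.12 for DLL1 in D11, −0.023 to 0.15 for JAG1 in WB1, and −0.18 to 0.23 for NOTCH1, −0.081 to 0.13 for NOTCH3, −0.069 to 0.17 for JAG2 and −0.19 to 0.15 for HEY1 in TD5. The replicate block, which fits the replicate number as a pairing of libraries, changed no call of a Notch gene, with NOTCH3 at −1.01 in D11, −0.61 in WB1 and 1.06 in TD5 against D11 (limma adjusted p = 0.00033, 0.00767 and 0.000241). HES4, NRARP and DLL1, at 7 to 54 scaled reads, rest on the fewest reads. The cause of the lost calls was not tested.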
